A study of Homo sapiens with 6 samples.

Results

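The transcripts of EPGN, 5 other ligands of the epidermal growth factor (EGF) family and 3 ErbB receptors were followed in LM3 cells, an established hepatocellular carcinoma (HCC) line. The 9 genes (EPGN, EREG, AREG, HBEGF, TGFA, BTC, EGFR, ERBB2 and ERBB3) were taken by symbol from the 33007 genes of the RNA-seq table, and each symbol occurred in 1 row. They were selected on counts of this same comparison, with the difference between the samples already known, so their differences are given as descriptions, without p-values, and how many of them passed the threshold applied to all genes is stated only beside the share of all genes that did. Cells carrying the vector (control, 3 samples) were compared with cells stably depleted of ZNF706 (knockdown, 3 samples), with the genotype given as WT for all 6. ZNF706 is a small zinc finger protein, and the question of the comparison was how its loss altered the expression profile. Stable knockdown lines were made with a lentiviral short hairpin RNA and puromycin selection. Which hairpin was used in the sequenced cells is not given in the sources used here. All samples come from 1 cell line, and nothing in the labels says that the 3 samples of a group were separate cultures, so every p-value measures only the spread between these samples, which may be technical.

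Ligands of the EGF family are made as membrane-anchored precursors, and metalloproteases and rhomboid-family proteins control their release. Once released, the ligands followed here bind EGFR (or, for a few of them, also ERBB4), and the receptors pair with one another. ERBB2 has no known ligand of its own and acts as a partner, and ERBB3 has little kinase activity. Paired receptors recruit adaptors such as GRB2 and SOS1 and activate the RAS-MAPK cascade, which in turn induces transcripts that include its own inhibitors. In liver the pathway is known for its part in regeneration.

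Total counts per sample were 62684076, 64713764 and 63054445 in control and 68548419, 65861994 and 69057423 in knockdown. After the filter on low counts, 18390 genes were tested with edgeR's quasi-likelihood test, and 4192 of them (22.8%) had a Benjamini-Hochberg adjusted p below 0.05. Of these, 1906 (10.4% of genes tested) were higher and 2286 (12.4%) were lower in knockdown. Higher genes made up 45.5% of the calls with the TMM scaling used here and 64.4% when samples were scaled by library size alone. They made up 62.2% with limma on log2(FPKM + 0.1), and 62.0% (1767 higher and 1081 lower) with the criteria of an unadjusted p below 0.05 and a shift of 0.3 or more on the log2 scale in either direction. ZNF706 counts were 3211, 3504 and 3357 in control and 2350, 2068 and 2298 in knockdown, with a log2 fold change of -0.73 ± 0.05 (SE, n = 3 per group). The groups did not overlap, and the targeted transcript was reduced but still present.

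Before the ligands were compared, the identity of the cells was checked. The epithelial keratin KRT18 was abundant, at a mean of 271 FPKM (fragments per kilobase of transcript, scaled to library size) in control and 261 in knockdown. The hepatocyte markers were low: ALB, the most abundant of the 8 listed, had a mean FPKM of 2.63 in control and 1.71 in knockdown. Control replicate 1 and knockdown replicate 3 stood apart in ALB, AFP and TF, with ALB counts of 189 and 138 against 587 to 899 in the other 4 samples. The remaining hepatocyte markers did not share this split, apart from TTR at 18 counts or fewer. The fibroblast marker COL1A2 did, with 117 counts in control replicate 1 and 119 in knockdown replicate 3, against 8 or fewer in the other 4. The epithelial marker EPCAM also did, with 8 and 6 counts in these samples against 29 to 74. EPGN did not follow that split, with 8045 counts in control replicate 1 and 7889 and 7977 in the other control samples.

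EPGN, which encodes epigen, a ligand of EGFR, was the most abundant of the ligands in every sample, and its level was lower after knockdown. EPGN (ENSG00000182585) lies at chr4:74308470-74316789 on the plus strand of GRCh38. Its FPKM values were 34.27, 32.44 and 33.65 in control and 22.31, 21.58 and 21.85 in knockdown. The lowest control sample lay above the highest knockdown sample. In control, 3.67% of the genes in the table had a higher mean FPKM. The counts were 8045, 7889 and 7977 against 5789, 5346 and 5672, which corresponded to a log2 fold change in CPM (counts scaled to the effective library size) of -0.66 ± 0.04 (SE). Omitting any single sample gave values from -0.68 to -0.64.

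AREG and EREG, which encode amphiregulin and epiregulin, lie downstream of EPGN on the same strand at chr4:74445136-74455005 and chr4:74365145-74388749. AREG, a ligand of EGFR, had FPKM values of 2.92, 2.64 and 2.52 in control and 1.94, 1.65 and 1.74 in knockdown. Its groups did not overlap, and its log2 fold change in CPM of -0.64 ± 0.14 (SE) was close in size to that of EPGN at a level more than an order of magnitude lower. EREG, a ligand of both EGFR and ERBB4, had FPKM values of 1.71, 1.51 and 1.55 in control and 1.38, 1.34 and 1.35 in knockdown. Its groups were also apart, with a smaller log2 fold change of -0.28 ± 0.09 (SE).

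The promoters of these 3 neighbouring ligands are shown because the genes lie together and differ widely in level, and that of EGFR is shown beside them because its level differed in the other direction. Sequences are from RefSeq (GRCh38.p14), in which 8 of the 9 genes had a promoter, and run 5′ to 3′ for 200 bases, the last of them 10 bases before the transcript start. Capitals mark matches on either strand to 6 motifs that were searched (the TATA box core TATAAA, the box known as CCAAT, the cyclic AMP response element TGACGTCA, the AP-1 site TGACTCA, the E-box CACGTG and the GC box GGGCGG). The windows are chr4:74308261-74308460 for EPGN, chr4:74364936-74365135 for EREG, chr4:74444927-74445126 for AREG and chr7:55018808-55019007 for EGFR, all on the plus strand.
EPGN: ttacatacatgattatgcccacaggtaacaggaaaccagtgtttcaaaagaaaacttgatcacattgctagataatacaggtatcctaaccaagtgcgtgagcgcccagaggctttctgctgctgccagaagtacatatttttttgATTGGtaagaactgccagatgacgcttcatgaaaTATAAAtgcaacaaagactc
EREG: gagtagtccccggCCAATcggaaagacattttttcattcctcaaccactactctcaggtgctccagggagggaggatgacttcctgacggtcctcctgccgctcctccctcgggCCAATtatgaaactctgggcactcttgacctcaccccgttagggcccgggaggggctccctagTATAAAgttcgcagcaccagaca
AREG: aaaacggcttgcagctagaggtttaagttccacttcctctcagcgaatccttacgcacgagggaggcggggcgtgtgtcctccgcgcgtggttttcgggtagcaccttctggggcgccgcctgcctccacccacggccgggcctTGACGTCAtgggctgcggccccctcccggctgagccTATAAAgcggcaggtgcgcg
EGFR: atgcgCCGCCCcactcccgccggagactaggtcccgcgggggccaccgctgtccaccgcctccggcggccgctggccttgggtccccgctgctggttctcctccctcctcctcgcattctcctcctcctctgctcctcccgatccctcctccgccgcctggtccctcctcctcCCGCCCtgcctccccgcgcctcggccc

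Each of the 3 ligand promoters held a TATAAA match close to the start, with its first base 29 bases before the start in EPGN and AREG and 32 bases before it in EREG. TATAAA occurred in 8.88% of 35116 RefSeq promoter windows of the same length. EPGN and EREG also held CCAAT (28.2% of windows), in EPGN on the minus strand and in EREG at 2 places. AREG alone among the 4 held TGACGTCA, the palindromic response element, which occurred in 1.51% of windows. The window of EGFR shown here held no TATAAA and 2 matches to GGGCGG on the minus strand, a motif found in 39.5% of windows. RefSeq lists a second EGFR promoter, at chr7:55109630-55109829 inside the gene, which held 2 TATAAA matches and a TGACTCA match at a GC content of 38%. The GC content of the windows shown was 40% in EPGN, 57% in EREG, 65.5% in AREG and 75.5% in EGFR, against a median of 58.5% over all windows. These are matches of letters and say nothing of which factors bind.

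The remaining ligands had overlapping groups or were near 0. HBEGF, the heparin-binding ligand of EGFR and ERBB4, had FPKM values of 3.21, 2.46 and 3.52 in control and 2.69, 2.82 and 2.42 in knockdown, with a log2 fold change in CPM of -0.26 ± 0.14 (SE). That of HBEGF ranged from -0.40 without control replicate 2 to -0.14 without control replicate 3. TGFA, which encodes transforming growth factor alpha, had FPKM values of 2.60, 2.97 and 2.71 in control and 2.57, 2.73 and 3.0 in knockdown. The log2 fold change of TGFA was -0.05 ± 0.09 (SE), and ranged from -0.11 to 0.01 with single samples omitted, and its sign also turned with library size scaling (0.01). For both genes the spread within groups covered the difference. BTC, which encodes betacellulin, had 0, 0 and 7 counts in control and 0, 3 and 3 in knockdown, and did not pass the filter on low counts.

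EGFR and ERBB2 were higher after knockdown, and ERBB3 was not separated. EGFR (chr7:55019017-55211628), the receptor shared by the ligands above, had FPKM values of 12.72, 12.26 and 11.47 in control and 16.57, 15.72 and 14.81 in knockdown. Every knockdown sample was above every control sample, with a log2 fold change in CPM of 0.32 ± 0.05 (SE). ERBB2 (chr17:39687914-39730426) had FPKM values of 2.14, 2.04 and 2.05 in control and 3.30, 3.13 and 3.15 in knockdown. This was the largest of the receptor differences, with a log2 fold change of 0.57 ± 0.06 (SE), again without overlap between groups. ERBB3 had FPKM values of 0.73, 0.58 and 0.66 in control and 0.67, 0.77 and 0.72 in knockdown, and its log2 fold change of 0.09 ± 0.12 (SE) was within its error and ranged from 0.01 to 0.16 with single samples omitted.

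ERBB2 and EGFR overlap genes on the opposite strand, and the handling of strand in the counts is not given in the sources used here, so reads from the overlaps cannot be told apart. MIEN1, which overlaps the end of ERBB2, had 760, 811 and 872 counts in control and 955, 1217 and 1038 in knockdown. PGAP3, at its other end, had 477, 497 and 535 counts in control and 457, 486 and 607 in knockdown. These compare with 1580, 1561 and 1523 counts of ERBB2 in control and 2683, 2431 and 2560 in knockdown. EGFR-AS1 had at most 12 counts in any sample, against at least 10316 for EGFR.

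**Figure D1:**
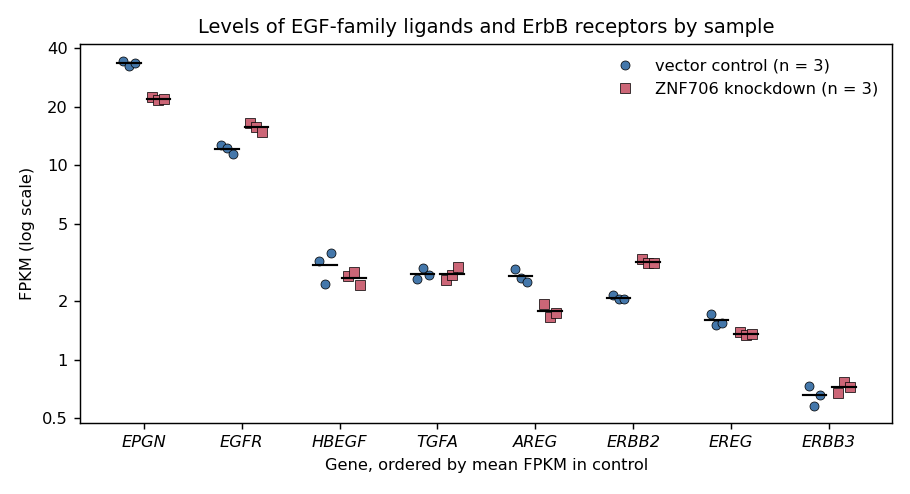
FPKM of each gene on a log axis, with 1 point per sample, circles for vector control, squares for ZNF706 knockdown and a line at each group's mean (BTC, near 0, is left out). EPGN and AREG sit lower and EGFR and ERBB2 higher in the 3 knockdown samples with no overlap, EREG is lower with a narrow gap, and HBEGF, TGFA and ERBB3 overlap.

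Of the 8 genes with enough counts to be tested, 4 were past the threshold applied across the table, EPGN and AREG lower and EGFR and ERBB2 higher, where 22.8% of all genes tested were past it. With a filter at a mean count of at least 50, EREG passed as well, which made 5 of 8, beside 4455 of 14132 genes tested. The CPM values of 5 of the 8 did not overlap between groups, where the same held for 39.4% of genes tested (7249 genes). Nothing is read from these counts, since the genes were picked with this comparison known. The median log2 fold change of the 8 was -0.15, beside 0.01 for all genes tested.

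**Figure D2:**
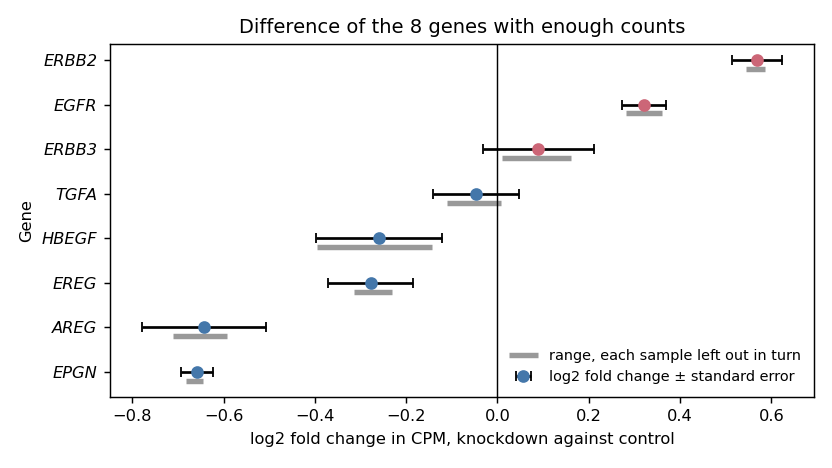
Log2 fold change in CPM of knockdown against control for the 8 genes, with points and black bars for the estimate ± standard error and grey bars for the range with each of the 6 samples omitted. EPGN (-0.66) and ERBB2 (0.57) lie farthest from 0 for their error, and the grey bar of TGFA crosses 0.

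Ordered by mean FPKM (± SD, n = 3), EPGN led in control with 33.5 ± 0.931, followed by EGFR with 12.2 ± 0.632. HBEGF (3.06 ± 0.545), TGFA (2.76 ± 0.190) and AREG (2.69 ± 0.205) had overlapping values and could not be ranked against each other. ERBB2 (2.08 ± 0.0551), EREG (1.59 ± 0.106), ERBB3 (0.657 ± 0.0751) and BTC followed. In knockdown EPGN (21.9 ± 0.369) and EGFR (15.7 ± 0.880) kept their places and ERBB2 followed with 3.19 ± 0.0929. TGFA (2.77 ± 0.217) and HBEGF (2.64 ± 0.204) again overlapped, and AREG (1.78 ± 0.148), EREG (1.36 ± 0.0208) and ERBB3 (0.720 ± 0.050) came after them. The rank of ERBB2 thus moved from below AREG to above TGFA and HBEGF. The order was the same by the median of the samples.

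The FPKM of the 6 ligands summed to 44.71, 42.02 and 43.99 in control and 30.89, 30.13 and 30.37 in knockdown. EPGN contributed 76.8% ± 0.371 (SD, n = 3) of this sum in control and 71.9% ± 0.301 in knockdown. The sum without EPGN was 10.12 ± 0.470 in control and 8.55 ± 0.030 in knockdown. The receptor sum moved the other way, from 15.59, 14.88 and 14.18 to 20.54, 19.62 and 18.68. The ratio of the ligand sum to the receptor sum was therefore 2.93 ± 0.15 in control and 1.56 ± 0.0632 in knockdown, and that of EPGN to EGFR was 2.76 ± 0.154 and 1.40 ± 0.0681. These ratios concern transcripts, and follow from genes picked for their differences.

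**Figure D3:**
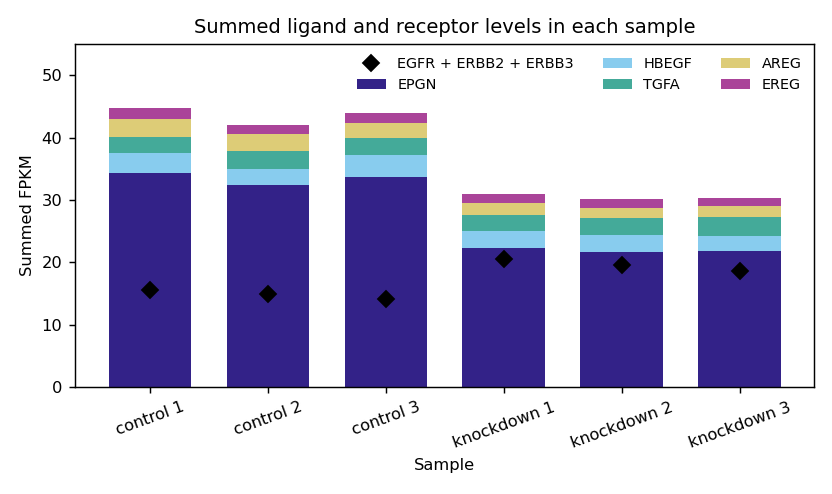
Stacked bars give the summed FPKM of the ligands in each of the 6 samples, coloured by gene (BTC adds at most 0.04 and is not drawn), and diamonds give the summed FPKM of EGFR, ERBB2 and ERBB3. The EPGN segment fills most of every bar, and bars are shorter and diamonds higher in the 3 knockdown samples.

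The rest of the ErbB ligands and receptors were scarcely expressed apart from NRG4. Of 6 listed genes (EGF, NRG1, NRG2, NRG3, NRG4 and ERBB4), 5 were in the table and 2 passed the filter, and neither was past the threshold with edgeR, at an unadjusted p below 0.05 (0 genes) or with DESeq2 or limma (0 genes each). NRG4, a neuregulin that binds ERBB4, had 1298, 1190 and 1241 counts in control and 1570, 1377 and 1613 in knockdown (log2 fold change 0.14, edgeR adjusted p = 0.25). Its FPKM values were 3.62, 3.2 and 3.43 in control and 3.97, 3.64 and 4.07 in knockdown. NRG4 is not part of the order by FPKM or of the ligand sum above. NRG1 had 75, 4 and 14 counts in control and 11, 16 and 0 in knockdown, most of them in 1 control sample. EGF had at most 6 counts, NRG2 at most 13 and the receptor ERBB4 at most 9 in any sample.

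Genes that process and move the ligands were called about as often as genes in general. Of 10 such genes tested, 2 rose and 0 fell, which is 20% of the list beside 22.8% of all genes tested, and the list's median log2 fold change was -0.0033 (0.05 with library size scaling). At an unadjusted p below 0.05, 3 rose and 0 fell, and DESeq2 gave 2 and 0. ADAM17 and ADAM10, the main sheddases of the family, had log2 fold changes of -0.04 ± 0.04 and 0.09 ± 0.04 (SE) and were not past the threshold. ADAM19, a metalloprotease of the same group, rose from 25, 15 and 16 counts to 64, 99 and 80 (log2 fold change 1.96 ± 0.37, adjusted p = 0.0042). RHBDF2, an inactive rhomboid protein that carries ADAM17 to the cell surface, rose from 828, 845 and 758 counts to 1105, 1095 and 1182 (0.33 ± 0.08, adjusted p = 0.017). The call of RHBDF2 was lost without control replicate 3, knockdown replicate 2 or knockdown replicate 3, with an adjusted p of up to 0.058.

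The adaptors and the RAS-MAPK core were mostly slightly lower. Of 17 genes tested, 9 fell and 2 rose (64.7% of the list past the threshold, beside 22.8% of all genes tested). Their median log2 fold change was -0.15. With library size scaling 7 fell and 3 rose, with a median of -0.10, on the FPKM scale 5 fell and 3 rose, and without knockdown replicate 2, 8 fell and 0 rose. Among the largest falls were those of the RAS exchange factors SOS1 (-0.30 ± 0.03, adjusted p = 0.00022) and SOS2 (-0.26 ± 0.04, adjusted p = 0.0024) and of the kinase gene BRAF (-0.28 ± 0.07, adjusted p = 0.016). SOS1 had 11835, 12196 and 11521 counts in control and 10904, 10292 and 10732 in knockdown, a separation without overlap despite the small fold change. The 2 genes that rose were MAPK3, which encodes ERK1 (0.22 ± 0.05, adjusted p = 0.014), and MAP2K2, which encodes its kinase MEK2 (0.17 ± 0.04, adjusted p = 0.012). BRAF lost its call on the FPKM scale (adjusted p of up to 0.20) and without control replicate 1, control replicate 3 or knockdown replicate 1. MAPK3 lost it without control replicate 2 or knockdown replicate 2, and MAP2K2 without knockdown replicate 2 (adjusted p of up to 0.059).

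Among inhibitors and downregulators of the receptors, 4 of 11 genes tested fell and 1 rose (45.5% of the list, beside 22.8% of all genes tested). The median of the list was -0.16 on the log2 scale. LRIG3, a membrane protein of the LRIG family, fell by 0.38 on the log2 scale (adjusted p = 0.0093). ERRFI1, which encodes the EGFR kinase inhibitor MIG6, went from 7405, 7549 and 7304 counts to 5952, 6329 and 6924 (log2 fold change -0.36 ± 0.05, adjusted p = 0.0012). CBL, the ubiquitin ligase that marks EGFR for degradation, also fell (-0.32 ± 0.05, adjusted p = 0.0014), as did SOCS4, of the suppressor of cytokine signaling family (-0.28 ± 0.06, adjusted p = 0.0061), whose call was lost on the FPKM scale (adjusted p of up to 0.055). PTPRJ, a receptor phosphatase that dephosphorylates EGFR, rose (0.30 ± 0.05, adjusted p = 0.0033). Of the 11 tested, 10 had a log2 fold change below 0, beside 8948 of 18390 genes tested, and only PTPRJ was above 0. Apart from the 4 that fell and PTPRJ, the other 6 were not past the threshold.

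Transcripts known to follow MAPK activity showed the lowest median of the pathway lists with more than 2 genes tested. All 13 genes had a log2 fold change below 0, beside 8948 of 18390 genes tested. Of the 13, 9 fell and 0 rose (69.2% of the list past the threshold, beside 12.4% of all genes tested that fell), and the median was -0.52. The list was chosen with earlier results of these data known, and it does not hold the AP-1 gene JUN, which rose. At an unadjusted p below 0.05, 11 fell and 0 rose, DESeq2 gave 10 and 0, and library size scaling gave 8 and 0. SPRY4, a feedback inhibitor of receptor signaling, went from 402, 347 and 508 counts to 176, 168 and 96 (-1.66 ± 0.25, adjusted p = 0.0013). ETV5 and ETV4, ETS-family transcription factors, had log2 fold changes of -0.90 ± 0.06 (adjusted p = 2.3e-05) and -0.82 ± 0.08 (adjusted p = 0.00014). FOSL1, an AP-1 subunit, went from 3120, 3287 and 3697 counts to 1985, 1917 and 2186 (-0.88 ± 0.07, adjusted p = 8.1e-05). In each of these 4 genes the groups were apart.

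The other 5 that fell were SPRED1, DUSP5, PHLDA1, DUSP4 and SPRED2, with log2 fold changes from -0.64 to -0.33. EGR1, SPRY2, IER3 and DUSP6 were not past the threshold. Of these, DUSP6, an ERK phosphatase commonly used as a readout of the pathway, had 63, 60 and 28 counts in control and 20, 38 and 23 in knockdown, too few for a narrow estimate (-1.03 ± 0.45, adjusted p = 0.13). EGR1, an immediate early gene, had 478, 403 and 466 counts in control and 515, 378 and 408 in knockdown (-0.20 ± 0.14, adjusted p = 0.35).

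**Figure D4:**
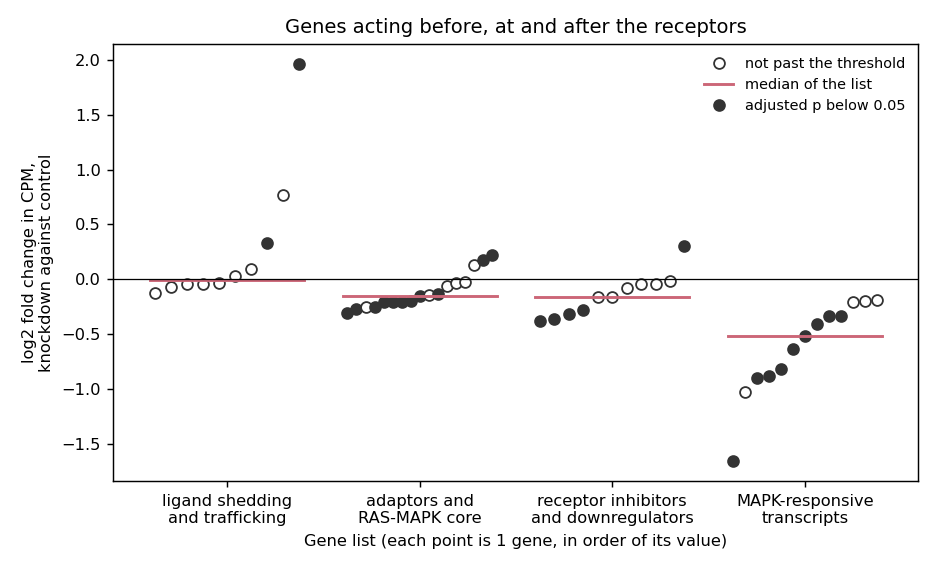
Log2 fold change in CPM of each tested gene in 4 lists, with 1 point per gene, filled where the adjusted p was below 0.05, and a line at each list's median. The 13 MAPK-responsive transcripts all lie below 0, whereas the sheddase list centres on 0 with ADAM19 (1.96) far above it.

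The table's own KEGG annotation assigned 83 genes to the ErbB signaling pathway, among them AREG, EGFR and ERBB2 but not EPGN. Of 72 tested, 8 rose and 20 fell (38.9%, beside 22.8% of all genes tested). The median of their log2 fold changes was -0.07. With library size scaling 11 rose and 16 fell, with a median of -0.01, and on the FPKM scale 10 rose and 13 fell. With the ligands and receptors above removed, 6 of 65 rose and 19 fell (38.5%), and the median remained at -0.07. Genes shared with the other lists above, such as CBL, were not removed, so these shares are not separate from theirs. Apart from EGFR and ERBB2, the largest rises were in the apoptosis regulator BAD (0.74 ± 0.10, adjusted p = 0.00073), the AP-1 subunit JUN (0.68 ± 0.05, adjusted p = 3.7e-05) and PIK3CD, a catalytic subunit of phosphoinositide 3-kinase (0.43 ± 0.04, adjusted p = 0.00012). JUN had 2362, 2408 and 2180 counts in control and 4039, 4028 and 4273 in knockdown, a direction opposite to that of its AP-1 partner FOSL1. Apart from AREG and CBL, the largest falls were in the kinase genes PAK4 (-0.44 ± 0.07, adjusted p = 0.0015), ABL2 (-0.41 ± 0.05, adjusted p = 0.00037) and MAPK8, which encodes JNK1 (-0.35 ± 0.06, adjusted p = 0.0044).

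EPGN, EREG, AREG and BTC form a cluster on chromosome 4, and the genes around it were examined for a difference shared by the region. Within 1 Mb of EPGN lay 22 genes, of which 12 passed the filter. These 12 include EPGN, EREG and AREG, which were selected on this comparison and are left out of the counts here. Of the other 9, 0 rose and 1 fell (11.1%, beside 22.8% of all genes tested), and the same numbers held at an unadjusted p below 0.05 and with DESeq2. A total of 8 had a log2 fold change below 0, most of them with wide errors, and the median was -0.60. CXCL2, a neutrophil chemokine gene upstream of EPGN, went from 226, 173 and 160 counts to 146, 103 and 91 (-0.87 ± 0.23, adjusted p = 0.024). This call was lost with no filter on low counts and without control replicate 1, knockdown replicate 2 or knockdown replicate 3, with an adjusted p of up to 0.085.

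MTHFD2L, a gene of mitochondrial folate metabolism whose end lies 5.37 kb upstream of EPGN, had a log2 fold change of -0.05 ± 0.08 (SE) and was not past the threshold. EREG lay between EPGN and AREG, 48.4 kb from EPGN, and had a smaller log2 fold change (-0.28) than either, and BTC was near 0. CXCL1 (-0.71 ± 0.53), AFP (-0.70 ± 0.59), ALB (-0.67 ± 0.59), CXCL8 (-0.60 ± 0.37), CXCL3 (-0.42 ± 0.45) and CXCL5 (-0.21 ± 0.99) were below 0 with wide errors, and AC093677 (ENSG00000269559, 0.54 ± 0.57) was above it. None of these 7 was past the threshold. The closest tested neighbours on either side of EPGN, MTHFD2L and EREG, thus had smaller log2 fold changes than EPGN, although the differences between genes were not tested.

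**Figure D5:**
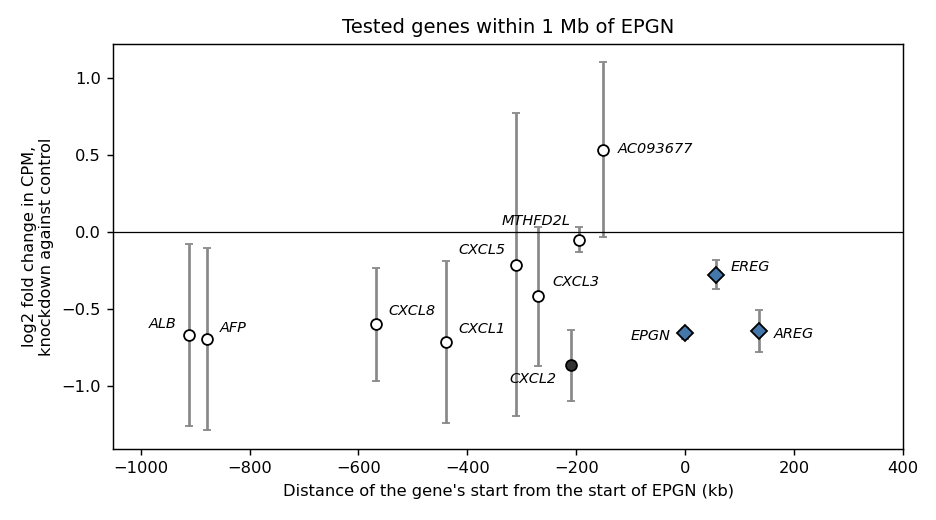
Log2 fold change in CPM (± standard error) of the 12 tested genes within 1 Mb of EPGN against the distance of their starts from that of EPGN in kb, with diamonds for EPGN, EREG and AREG, which were selected on this comparison, and circles for the other 9, filled where the adjusted p was below 0.05. CXCL2 is the filled circle, and MTHFD2L lies near 0.

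The genes whose values ran most like those of EPGN over the 6 samples were SEPTIN7, a cytoskeletal septin (Pearson's r = 0.999), PVR, which encodes the poliovirus receptor CD155 (0.998), KIF2A, a kinesin (0.998), ZNF207, a zinc finger gene (0.998), and NFRKB, a chromatin remodeling subunit (0.998). The correlation was taken on log2 CPM over 13580 genes with a mean CPM of at least 1, and the 6 points fall into the control and knockdown groups, so it reflects mainly the difference between groups. All 5 genes had lower values in knockdown, with log2 fold changes between -0.88 (KIF2A) and -0.32 (NFRKB).

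In bulk samples fewer cells of a type and less RNA per cell cannot be told apart. Markers of other cell types were therefore summed in each sample, although all 6 samples come from 1 cell line. Whether these transcripts came from other cells or from the line itself was not tested. The 5 fibroblast markers summed to 10.61, 9.34 and 9.82 FPKM in control and 12.28, 12.22 and 12.53 in knockdown, with COL1A1 the most abundant (mean 7.05 and 8.40). Of the 4 tested, 3 rose, beside 10.4% of all genes tested: COL1A1 (0.20 ± 0.03), PDGFRB (0.68 ± 0.12) and THY1 (0.48 ± 0.10, adjusted p of at most 0.0090 for each). The fourth, COL3A1, had 336, 0 and 48 counts in control and 42, 61 and 0 in knockdown (-2.04 ± 1.39, not past the threshold), and COL1A2, which was not tested, had 117, 8 and 0 against 0, 0 and 119. The 8 hepatocyte markers summed to 3.59, 7.71 and 9.0 in control and 3.51, 3.78 and 2.72 in knockdown. Of these 8, 2 fell (25%, beside 12.4% of all genes tested), APOB (-0.98 ± 0.25, adjusted p = 0.021) and SERPINA1 (-1.47 ± 0.26, adjusted p = 0.0034).

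Of the 4 epithelial markers 0 were called with edgeR (2 at an unadjusted p below 0.05, CDH1 higher and KRT18 lower, and 1 with DESeq2), and they summed to 452.48, 458.9 and 479.45 in control and 450.73, 466.02 and 468.45 in knockdown. The endothelial markers summed to between 1.79 and 2.06 in control and between 1.43 and 1.69 in knockdown, and VWF had at most 20 counts. Of the 2 endothelial markers tested, CDH5 fell (-0.70 ± 0.10, adjusted p = 0.0014), beside 12.4% of all genes tested, and PECAM1 was not past the threshold (0.15 ± 0.15, adjusted p = 0.54). The blood markers summed to at most 0.42 in any sample, with 0 called (0 also at an unadjusted p below 0.05 and with DESeq2) and PTPRC at 0 counts in 4 of 6 samples. The part of these marker differences in the values of EPGN, AREG, EGFR and ERBB2 was not tested.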

How the data were processed

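Total RNA of 3 vector control and 3 ZNF706 knockdown samples of LM3 cells was sequenced on an Illumina NovaSeq. The submitters' processing notes name cutadapt 1.9, FastQC and GRCh38, and the study's methods name HISAT2. The counting program, its strand setting and the annotation release are not given in the sources used here. The authors deposited raw counts per gene, which are whole numbers, and FPKM values, which they had scaled by gene length and library size. Total counts per sample were 62684076 to 69057423.

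Counts were tested with edgeR 4.0.16 (R 4.3.3) after filterByExpr and TMM scaling, by glmQLFit and glmQLFTest with group as the only term and Benjamini-Hochberg adjustment over 18390 genes. A call is an adjusted p below 0.05. CPM values use TMM library sizes. Levels of different genes were compared only as FPKM. Replicates differed from one another by more than sampling noise, with a chi-square per gene of at least 12.8 within groups, so the errors given rest on the spread between samples, and all 6 samples were kept. Alternatives were DESeq2 1.42.0, limma 3.58.1 on log2(FPKM + 0.1) and log2(FPKM + 1), other scalings and filters, a threshold of an unadjusted p below 0.05 and a shift of 0.3 or more on the log2 scale in either direction, a replicate block and leaving out each sample.

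The 9 genes, the pathway and marker lists and the tests were chosen with earlier results of these data known. Named were the 9 genes and ZNF706, in each pathway list every called gene or, above 8, the 4 largest rises and 4 largest falls, in the KEGG ErbB list the 5 largest of each, every tested gene within 1 Mb of EPGN, and the 5 genes most like EPGN by Pearson's r. A gene that the rule names is not reported here. Other genes named in the text (among them ADAM10, ADAM17, DUSP6, EGR1 and the marker genes) were chosen after their values were seen. Promoters are those of RefSeq (GRCh38.p14).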

Additional observations from a re-analysis of the deposited data

How the results depend on the processing

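Calls across the table numbered 4192 and ranged from 2648 (without knockdown replicate 2) to 3424 with single samples omitted, where the groups are smaller, and from 2990 (no filter on low counts) to 4455 under the other settings at the same threshold. An unadjusted p below 0.05 and a shift of 0.3 or more on the log2 scale in either direction, a different threshold, gave 2848. The log2 fold change of EPGN was -0.60 with library size alone, -0.61 with limma on log2(FPKM + 0.1) and -0.59 with log2(FPKM + 1). On these FPKM scales that of EREG was -0.21 and -0.14, and with log2(FPKM + 1) that of AREG was -0.41 and that of ERBB2 0.45. ERBB2 reached 0.62 with library size alone. An added pseudocount shrinks the differences of low genes by construction. Calls in the sheddase list, 2 in the fit reported, were 1 with a mean count of at least 50 and with limma at either pseudocount, and 1 to 3 with single samples omitted. No result reversed among those called. Of 24 called genes named from the lists, 18 stayed called in every alternative in which they were tested. ADAM19, among these 18, was not tested with a mean count of at least 50 or with limma. Scaling by gene length from counts was not run, since the table gives no gene length.

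Sample numbers are shared by the groups, but deviations of same-numbered samples correlated at 0.04, -0.04 and 0.03, so the numbers were not taken to pair them. With the replicate block 4361 genes were called. Not every sample correlated best with its own number. BTC, EGF, NRG2 and ERBB4 had too few counts to pass the filter, and a difference was not detectable in them. NRG1 was tested, and its samples spread widely within groups.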

Other observations

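Receptor tyrosine kinases outside the ErbB family were listed after values had been seen and are given without a test of the list. Of 54 listed, 34 were tested, 7 rose and 4 fell (32.4%, beside 22.8% of all genes tested), and with library size scaling 10 rose and 3 fell. Their median was 0.09 on the log2 scale. The rises were in AATK (1.07), PDGFRB (0.68), LMTK3 (0.52), CSF1R (0.49), IGF1R (0.22), MET (0.20) and DDR1 (0.12). MET, the receptor of hepatocyte growth factor, had 12997, 13196 and 12398 counts in control and 17425, 15961 and 15650 in knockdown, with no overlap between groups after scaling. The falls were in EPHA2 (-0.47), ROR2 (-0.40), LMTK2 (-0.24) and RYK (-0.16), each with an edgeR adjusted p below the threshold.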
